A study of Mus musculus with 5 samples.

Results

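The genes of the cytosolic ribosomal proteins were compared among retrogradely labeled neurons of the mouse primary somatosensory cortex (S1). The ribosome translates mRNA and is built from a small subunit, which reads the mRNA, and a large subunit, which joins the amino acids. Each subunit is made of ribosomal RNA and many proteins, named Rps for the small and Rpl for the large subunit. In mammals these proteins are made in near equal amounts, and their mRNAs share a stretch of C and T at the 5′ end, the 5′ TOP, through which the TOR pathway controls their translation. Neurons hold ribosomes in the cell body, dendrites and axons, and ribosomal protein mRNAs are among the most abundant in most cells.

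Members were chosen by symbol, as probe sets annotated with 1 gene symbol of the form Rpl or Rps and a number, together with *Rpsa*, *Rplp0*, *Rplp1*, and *Rplp2*, without S6 kinases and without pseudogene symbols. The rule took 61 genes, of 19938 genes named on the array. They comprised 38 genes of the large and 23 of the small subunit on 17 chromosomes, and 3 of them, *Rpl10*, *Rps4x*, and *Rpl36a*, were X-linked. The annotation called 60 of them protein coding and *Rps4l* a transcribed pseudogene. The rule is not complete. A current RefSeq gene table holds 84 protein-coding genes of this naming, and 24 of these, such as *Rpl3*, *Rpl11*, and *Rps27*, had no probe set of their own symbol alone. For 17 of the 24 the symbol stood only in probe sets that named several genes.

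The study asked which genes mark association neurons, which project from S1 to the primary motor cortex (M1) of the same hemisphere, against callosal neurons, which project to the contralateral S1 (cS1). There were 5 groups with 1 array each, namely association neurons of layer 6b (L6b, the remnant of the subplate, SP), L5, and L2/3, and callosal neurons of L5 and L2/3. All mice were of the ICR strain and PD24 (postnatal day 24), had been electroporated *in utero* with pCAGGS-tdTomato, and had received Green RetroBeads in M1 for association or cS1 for callosal neurons. About 1000 labeled cells per group were collected by laser microdissection, and their RNA was amplified and measured on Affymetrix gene arrays. How many animals were pooled in a group was not stated in the labels or methods.

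With 1 array per group, no difference could be tested and no value has a replicate error. All values below describe these 5 arrays. Signals are log2 values with the median of each array subtracted, so that 0 is the array median and a difference of 1 is 2-fold. Genes at or above the array median on any array were compared, which gave 12632 genes. A call of higher or lower in an array required 2-fold or more against every other array, a rule of size and not of error. In such pooled samples fewer cells of a type and less RNA per cell cannot be told apart. Signals of different probe sets depend on their probes as well as on the mRNA, so that signals of different genes are not amounts of mRNA that can be ranked.

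Markers of L6b were high in the array of that label, and markers of other cell types were present. The 6 measured L6b markers were all above the rest in association L6b, with a median difference of 1.92 from the mean of the other 4 arrays, led by *Cplx3*, *Moxd1*, and *Kcnab1*. The study picked *Kcnab1* from these same arrays for its enrichment in L6b, so its value is no separate support for the label. *Ctgf* was the listed marker, of 7, that was not measured under its own symbol alone. The summed signal of the 6 markers was 5.74 (log2) in association L6b and 2.63 to 2.81 on the other arrays. Of 7 glutamatergic markers 6 were below the rest in L6b, with a median of −0.67, and their summed signal was 5.64 in L6b and 6.34 to 6.83 elsewhere. The 10 myelin genes were all above the rest in L6b, with a median of 0.98. Their summed signal was 6.00 in L6b, 5.78 in L5, and 4 in L2/3 among association neurons, and 5.14 in L5 and 4.07 in L2/3 among callosal neurons. The 6 GABAergic markers were all below the rest in L6b, with a median of −0.91, and their summed signal was 3.79 in L6b and 5.18 to 5.92 elsewhere. No L6b marker, glutamatergic marker, or myelin gene was at or below the array median in association L6b. The part of these cells in the results that follow was not tested.

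Of the 61 ribosomal protein genes 57 reached the array median and were compared. The 4 that did not, *Rpl30*, *Rpl39l*, *Rpl10l*, and *Rpl3l*, were below it on all 5 arrays. The other 57 were nearly all far above the median, and 45 of them had a mean signal of at least 4. Their median signal was 5.38 in L6b, 5.76 in L5, and 5.57 in L2/3 among association neurons, and 5.79 in L5 and 5.73 in L2/3 among callosal neurons, against 0.72 to 0.84 for all genes compared. The 61 genes had 217 probe sets in all, and the brightest was used for each gene. For many of them processed pseudogenes exist in the genome, so that a probe set can also read near-identical copies.

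Sequences around the annotated start are shown for 6 members with large differences between arrays. The 5′ TOP lies at the 5′ end of the mRNA, so a run wholly before the start is not part of it. RefSeq start regions (GRCm38.p6, 250 bases before to 50 after a start) were found for 49 of the 61 genes. Each sequence runs 5′ to 3′ on the gene's strand from 15 bases before to 15 from the start on, and capitals mark its longest run of at least 6 C or T.
Rps27l (chr9:66946071-66946100, plus strand, 1 of 2 annotated starts): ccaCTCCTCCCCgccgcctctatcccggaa
Rpl12 (chr2:32961697-32961726, plus strand): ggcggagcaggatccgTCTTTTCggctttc
Rpl14 (chr9:120571502-120571531, plus strand): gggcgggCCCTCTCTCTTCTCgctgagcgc
Rps10 (chr17:27635230-27635259, minus strand): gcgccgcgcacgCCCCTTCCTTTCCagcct
Rpl7a (chr2:26910792-26910821, plus strand): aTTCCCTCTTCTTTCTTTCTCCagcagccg
Rpl22 (chr4:152324421-152324450, plus strand, 1 of 2 annotated starts): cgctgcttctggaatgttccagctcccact

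A run of at least 6 C or T was present within this window in 26 of the 49 genes (53.1%), against 32.4% of 17491 protein-coding genes. Both shares also count runs wholly before the start, as in the members *Rpl13* and *Rpl4*, so they are not shares of 5′ TOP starts. A run was present in 5 of the 6 genes shown and absent at the shown start of *Rpl22*. In *Rps27l* the run lay wholly before the shown start and so outside an mRNA that begins there. Whether a run acts as a 5′ TOP was not tested. Over the whole 300 bases, on either strand, CCGGAAG was found in 19 of 49 genes (38.8%), against 12.9% of all. CTCGCGAG was found in 7 (14.3%), against 1.41% of all. TATAAA was found in 6 (12.2%), against 14.8% of all. AAGATGGC was found in 3 (6.12%), against 3.57% of all, and GGGCGG in 29 (59.2%), against 49.2%. These letters were chosen after the shares had been seen, no motif contains another, and a match describes the sequence only.

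The median spread of the ribosomal protein genes over the 5 arrays was near that of all genes, with fewer wide ranges. The range of a gene over the arrays had a median of 0.56, which is 1.47-fold, against 0.53 for all genes compared. It was under 0.5 in 25 of the 57 members (43.9%, against 47.8% of all genes) and at least 1 in 9 (15.8%, against 29.5%). The range was smallest in *Rpl36a*, *Rpl29*, and *Rps25*, the last needed for initiation at some viral mRNAs. *Rpl36a* had signals of 6.31 in L6b, 6.22 in L5, and 6.28 in L2/3 among association neurons, and 6.28 in L5 and 6.24 in L2/3 among callosal neurons. *Rpl29* had 3.38 in L6b, 3.41 in L5, and 3.35 in L2/3 among association neurons, and 3.44 in both callosal arrays. *Rps25* had 5.83 in L6b, 5.96 in L5, and 5.85 in L2/3 among association neurons, and 5.89 in L5 and 5.95 in L2/3 among callosal neurons. None of these 3 genes differed by more than 0.13 between any arrays.

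**Figure D1:**
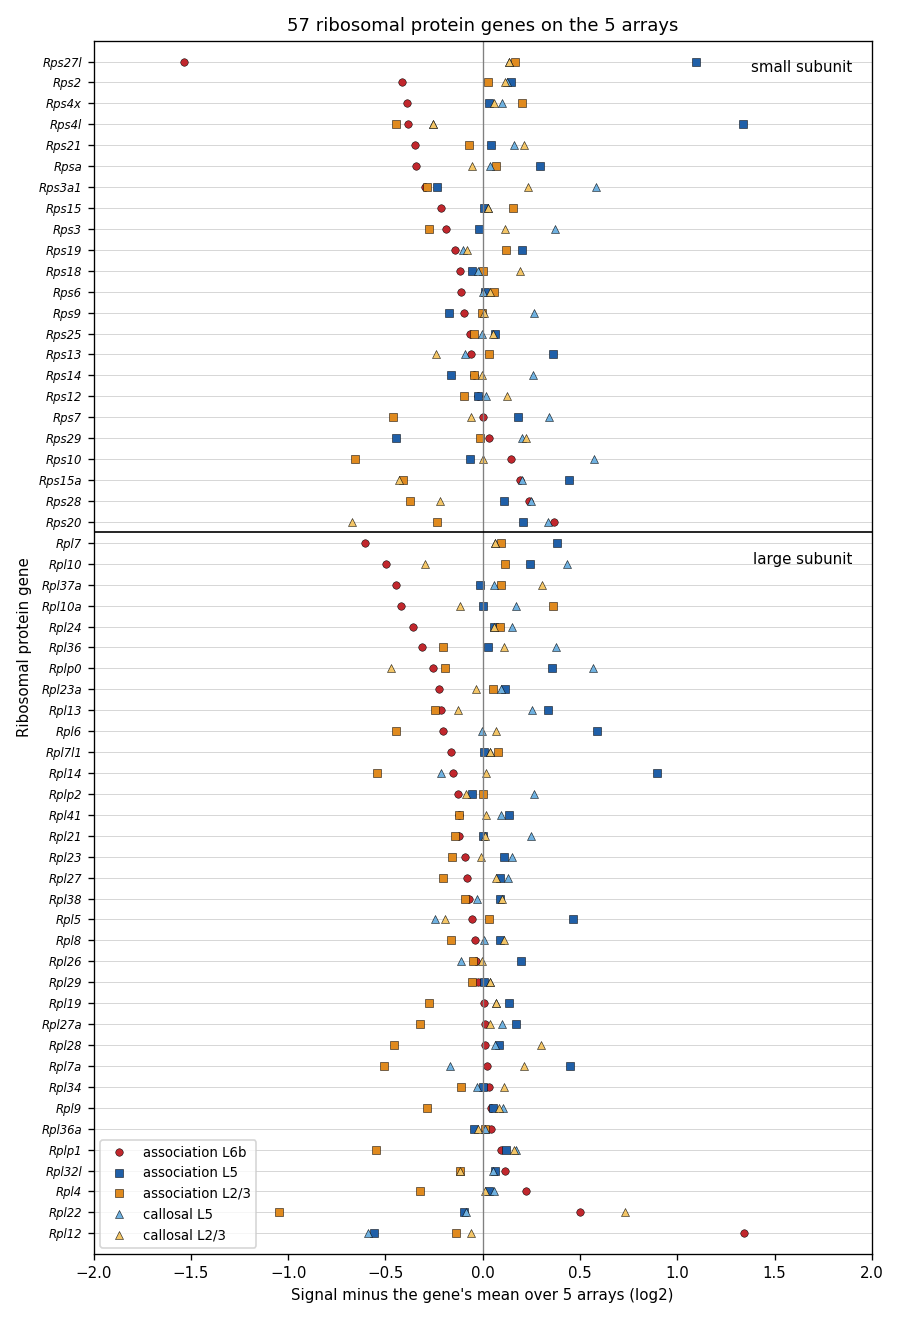
Signals of the 57 compared ribosomal protein genes on the 5 arrays, each as its log2 signal minus the gene's own mean over the arrays (x axis), with genes of the small subunit above and of the large subunit below the line, ordered by their L6b difference. Most points lie within 0.5 of 0, association L2/3 (orange squares) lies left of 0 in most genes, and *Rps27l*, *Rps4l*, *Rpl12*, *Rpl14*, and *Rpl22* have an array far from the others.

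The largest median difference of the family among the 6 pairs of arrays lay between the association arrays of L5 and L2/3. Of 57 genes 43 were higher in association L5 than in association L2/3 (75.4%), against 39.9% of all genes compared. The median difference was 0.23, which is 1.17-fold, against −0.06 for all genes. The large subunit had a median of 0.26 with 27 of 34 genes above 0, and the small subunit had 0.11 with 16 of 23 above 0. Over all 217 probe sets of members 165 were above 0, with a median of 0.23. The members' median stayed 0.20 to 0.31 above that of all genes in the 7 settings of scaling, filter, and probe sets per gene for which both were computed. In the 237 probe sets that name several genes including a ribosomal protein, it was 0.1.

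In callosal neurons the same layers had a smaller median difference by the brightest probe sets. The median of callosal L5 minus callosal L2/3 was 0.02, against 0 for all genes, with 31 of 57 members above 0, 19 below, and 7 with the same deposited value on both arrays. Of all genes 39.7% were above 0 and 35.8% below. Over all 217 probe sets of members 133 were above 0 and 65 below, with a median of 0.07. In the probe sets that name several genes the callosal median was 0.1, equal to that of the association pair in the same probe sets. Over the members, the L5 minus L2/3 difference in association neurons and that in callosal neurons had a Pearson correlation of −0.01 (n = 57). These 2 differences share no array, but the points share the array-wide scaling. The sign was positive in both for 24 genes, negative in both for 5, and opposite for 21. Whether the layer difference itself differed between projections was not tested.

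**Figure D2:**
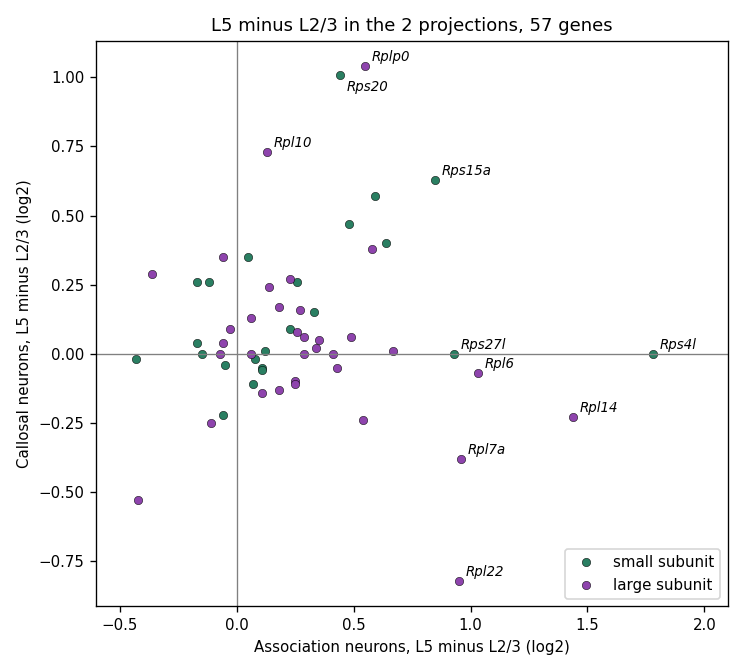
L5 minus L2/3 in association neurons (x axis, log2) against L5 minus L2/3 in callosal neurons (y axis, log2) for the 57 compared genes, colored by subunit. Most points lie right of 0 on the x axis, around a median of 0.23, and around 0.02 on the y axis, and *Rpl22* is high on one axis and low on the other.

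The 10 myelin genes were also higher in association L5 than in association L2/3, by a median of 0.97, and in callosal L5 than in callosal L2/3, by a median of 1. Their part in the ribosomal protein values was not tested. Of other lists of translation genes, compared in association L5 and L2/3, 46 of 77 genes of mitochondrial ribosomal proteins (Mrp), which build the ribosome of mitochondria, were higher in L5, with a median of 0.14. Initiation factors had a median of −0.06 with 9 of 33 above 0, elongation and termination factors −0.14 with 1 of 11 above 0, ribosome biogenesis genes −0.06 with 16 of 42 above 0, and S6 kinase and TOR pathway genes −0.15 with 3 of 15 above 0.

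Across arrays, association L5 and callosal L5 stood highest most often and association L2/3 lowest most often. Association L5 was highest in 19 of 57 members (33.3%, against 17.2% of all genes compared) and callosal L5 in 17 (29.8%, against 15.4%). The same was counted in 298 other genes of like signal, whose means lay between the members' quartiles, 4.81 to 6.29. Of these, association L5 was highest in 18.8% and callosal L5 in 25.2%. Association L2/3 was lowest in 24 members (42.1%, against 19.9% of all genes and 17.1% of those of like signal). Association L6b was lowest in 20 members (35.1%), against 30.7% of all genes and 35.2% of those of like signal. With the values as deposited, association L6b was lowest in 28.1% of members. The shares were then 17.4% of all genes and 27.9% of those of like signal. Taken against the mean of the other 4 arrays, the median over members was −0.11 in L6b, 0.10 in L5, and −0.14 in L2/3 among association neurons, and 0.12 in L5 and 0.05 in L2/3 among callosal neurons. The same medians over all genes compared were −0.06, −0.03, 0.03, 0.01, and 0, in the same order of arrays. Without association L2/3 the association L5 value was 0.06. The callosal L2/3 value was −0.01 without association L6b and −0.003 without association L2/3. Association L5 was above the others in 42 of 57 members (73.7%), against 39.3% of all genes. Association L2/3 was below in 38 members (66.7%), against 44.0% of all genes. Among the genes of like signal, association L5 was above the others in 49.3% and association L2/3 below in 39.9%. Callosal L5 was above the others in 73.7% of members, 52.0% of all genes, and 72.1% of the genes of like signal. Its median in the genes of like signal was 0.09, near the members' 0.12.

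**Figure D3:**
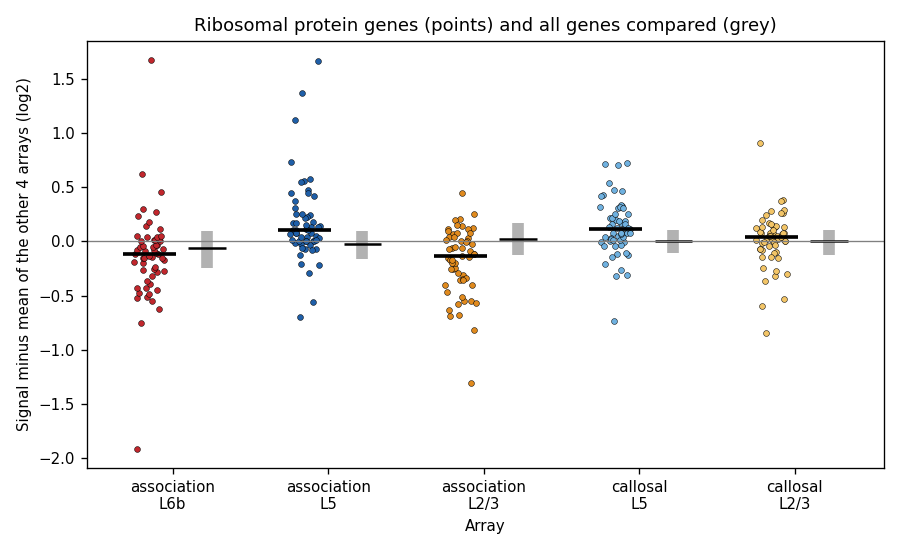
Difference of each array from the mean of the other 4 (y axis, log2) for the 57 ribosomal protein genes (points, with their median as a black line) and for the 12632 genes compared (gray bar from the first to the third quartile, with the median as a line). The members' median lies below 0 in association L6b and L2/3 and above 0 in association L5 and callosal L5, all within 0.14 of 0.

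Association L6b, the group the study centered on, was set apart little from the mean of the other arrays. Its median difference of −0.11 was set against −0.06 for all genes, and 39 of 57 members (68.4%) were below the mean of the other arrays, against 62.8% of all genes. The small subunit had a median of −0.14 and the large subunit −0.10. Against association L5 the median was −0.17, with 44 of 57 below 0 (77.2%), while all genes had −0.03 with 57.2% below 0. The members' median minus that of all genes was −0.14 to −0.133 in the 7 settings for which both were computed. Against association L2/3 the members' median was 0.02, while all genes had −0.09. Of the members 31 (54.4%) were above and 24 (42.1%) below 0, against 39.9% and 58.8% of all genes. With the 75th percentile of each array subtracted in place of the median, the L6b median of the members was −0.01, against 0.05 for all genes.

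Counted gene by gene, 3 of the 57 members differed by at least 2-fold from each other array. *Rpl12* was higher in association L6b, where 1.26% of all genes compared were, and *Rps27l* was lower there, where 2.82% of all genes were. *Rps4l* was higher in association L5, where 1.31% of all genes were, and 0 members were lower there, against 0.823%. In association L2/3, 0 members were higher, against 2.34% of all genes, and 0 lower, against 0.158%. In callosal L5, 0 were higher, against 1.31%, and 0 lower, against 0.356%. In callosal L2/3, 0 were higher, against 1.67%, and 0 lower, against 0.451%. A single gene among 57 is 1.75%, so that each of these counts, taken alone, is near the share of all genes. Wide ranges over the arrays, of at least 1, were rarer in members than in all genes (15.8% against 29.5%).

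*Rps27l* encodes a paralog of *Rps27* of the small subunit, known in human and mouse cells as a target of p53. Its signal was 0.99 in L6b, 3.62 in L5, and 2.69 in L2/3 among association neurons, and 2.66 in L5 and 2.66 in L2/3 among callosal neurons. L6b was the lowest array, 6.19-fold below association L5 and 3.25-fold below association L2/3. Association L5 was the highest, 1.91-fold above association L2/3 and 1.95-fold above callosal L5. The gene has 1 probe set, and both callosal arrays hold the same deposited value for it, 8.4. *Rps27* itself had no probe set of its own.

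*Rpl12* encodes a protein of the large subunit near the base of its stalk, where elongation factors bind. Its signal was 1.83 in L6b, −0.07 in L5, and 0.35 in L2/3 among association neurons, and −0.10 in L5 and 0.43 in L2/3 among callosal neurons. The L6b array was 3.73-fold above association L5 and 2.79-fold above association L2/3, and the other 4 arrays lay close to the array median. The gene has 1 probe set.

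*Rps4l*, the transcribed pseudogene, had 0.30 in L6b, 2.02 in L5, and 0.24 in L2/3 among association neurons, and 0.43 in both callosal arrays. Association L5 was 3.43-fold above association L2/3 and 3.01-fold above callosal L5, and the other 4 arrays were within 0.19 of each other. Both of its probe sets were higher in association L5, by 1.25 and 1.78 over association L2/3. Its X-linked relative *Rps4x*, of the same small subunit family, had 5.38 in L6b, 5.80 in L5, and 5.97 in L2/3 among association neurons, and 5.87 in L5 and 5.83 in L2/3 among callosal neurons, with L6b the lowest.

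**Figure D4:**
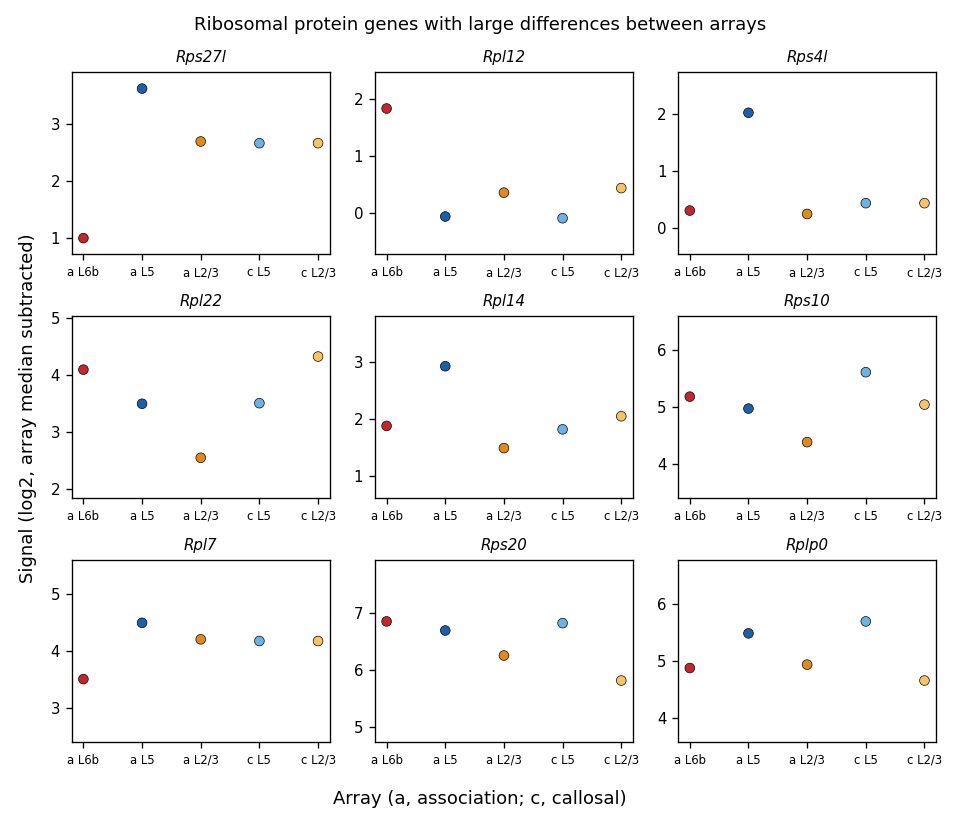
Signals of 9 ribosomal protein genes with large differences between arrays, chosen after their values were seen (y axis, log2 with the array median subtracted, with the same span in each panel; x axis, the 5 arrays). *Rps27l* is lowest and *Rpl12* highest in association L6b, *Rps4l* and *Rpl14* are highest in association L5, and *Rpl22* is lowest in association L2/3.

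The other paralogs showed smaller differences. *Rpl7l1*, a nucleolar relative of *Rpl7*, had −0.09 in L6b, 0.08 in L5, and 0.15 in L2/3 among association neurons, and 0.11 in both callosal arrays. *Rpl32l* had 1.76 in L6b, 1.71 in L5, and 1.53 in L2/3 among association neurons, and 1.70 in L5 and 1.53 in L2/3 among callosal neurons. Both varied by less than 0.25 over the arrays. *Rpl39l* and *Rpl10l*, known from testis, and *Rpl3l*, known from striated muscle, were below the array median throughout. *Rpl39l* had −1.98 in L6b, −1.52 in L5, and −1.91 in L2/3 among association neurons, and −1.92 in both callosal arrays. *Rpl10l* had −0.86 in L6b, −0.39 in L5, and −1.02 in L2/3 among association neurons, and −0.65 in L5 and −0.87 in L2/3 among callosal neurons. *Rpl3l* had −0.59 in L6b, −0.62 in L5, and −0.87 in L2/3 among association neurons, and −0.58 in L5 and −0.59 in L2/3 among callosal neurons. The fourth member below the median, *Rpl30*, encodes a core protein of the large subunit, with −0.82 in association L2/3 and −0.22 in callosal L5 as its lowest and highest signals.

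After *Rps27l*, the members lowest in L6b were *Rpl7*, *Rpl10*, *Rpl37a*, *Rpl10a*, and *Rps2*. *Rpl7* had 3.5 in L6b, 4.49 in L5, and 4.2 in L2/3 among association neurons, and 4.17 in both callosal arrays, with a difference of L6b from the mean of the others of −0.76. All 4 of its probe sets were lower in L6b, with −1.92 to −0.99 against association L5, and the mean of its probe sets passed 2-fold against each other array. *Rpl10*, an X-linked gene whose product joins the large subunit late and shapes the site of peptide bond formation, had 4.31 in L6b, 5.05 in L5, and 4.92 in L2/3 among association neurons, and 5.24 in L5 and 4.51 in L2/3 among callosal neurons. Its L6b and callosal L2/3 signals were the lowest, and its 6 probe sets were all lower in L6b than in either other association array.

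*Rpl37a* of the large subunit had 5.57 in L6b, 6.00 in L5, and 6.11 in L2/3 among association neurons, and 6.07 in L5 and 6.32 in L2/3 among callosal neurons. *Rpl10a* had 4.65 in L6b, 5.07 in L5, and 5.43 in L2/3 among association neurons, and 5.24 in L5 and 4.95 in L2/3 among callosal neurons. *Rps2*, whose protein lines the mRNA entry of the small subunit, had 5.29 in L6b, 5.85 in L5, and 5.73 in L2/3 among association neurons, and 5.83 in L5 and 5.82 in L2/3 among callosal neurons. L6b was the lowest array in all 3 genes. The 3 probe sets of *Rps2* did not all show this, since 1 was higher in L6b than in association L5 by 0.15. All 4 probe sets of *Rpl10a* were lower in L6b than in the other association arrays.

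After *Rpl12*, the members highest in L6b were *Rpl22*, *Rps20*, *Rps28*, *Rpl4*, and *Rps15a*. *Rps28*, whose protein lies at the mRNA exit of the small subunit, had 6.78 in L6b, 6.65 in L5, and 6.17 in L2/3 among association neurons, and 6.79 in L5 and 6.32 in L2/3 among callosal neurons. *Rpl4*, whose protein lines the exit tunnel of the large subunit, had 6.61 in L6b, 6.42 in L5, and 6.07 in L2/3 among association neurons, and 6.45 in L5 and 6.40 in L2/3 among callosal neurons. *Rps15a* of the small subunit had 3.90 in L6b, 4.15 in L5, and 3.30 in L2/3 among association neurons, and 3.91 in L5 and 3.28 in L2/3 among callosal neurons. In none of these 3 was L6b set apart from every other array, as callosal L5 lay close to it in each. Association L2/3 was low in all 3.

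*Rpl22* showed the widest split within L2/3. Its protein binds RNA, is not needed for survival in mice, and controls the mRNA of its paralog *Rpl22l1*. It had 4.10 in L6b, 3.5 in L5, and 2.55 in L2/3 among association neurons, and 3.51 in L5 and 4.33 in L2/3 among callosal neurons. Association L2/3 was the lowest array and callosal L2/3 the highest, a 3.43-fold difference, while the L5 arrays differed by 0.01. Association L6b was 2.93-fold above association L2/3. With quantile normalization or the 75th percentile as scale, *Rpl22* was at least 2-fold lower in association L2/3 than in each other array. It has 1 probe set.

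Taken as pairs of arrays, few members differed by 2-fold. In association L6b against L5, *Rpl12* was higher (1 of 57, against 3.5% of all genes compared) and *Rps27l*, *Rps4l*, and *Rpl14* were lower (3 of 57, against 7.16%). In association L6b against L2/3, *Rpl12* and *Rpl22* were higher (2 of 57, against 2.83%) and *Rps27l* was lower (1 of 57, against 10.6%). In association L5 against L2/3, *Rps4l*, *Rpl14*, and *Rpl6* were higher (3 of 57, against 3.48%) and 0 were lower (against 7.36%). In callosal L5 against L2/3, *Rplp0* and *Rps20* were higher (2 of 57, against 4.08%) and 0 were lower (against 4.52%). In association L5 against callosal L5, *Rps4l* and *Rpl14* were higher (2 of 57, against 3.49%) and 0 were lower (against 4.97%). In association L2/3 against callosal L2/3, 0 were higher (against 5.07%) and *Rpl22* was lower (1 of 57, against 3.48%). Pairs that share an array are not separate evidence.

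*Rpl14*, *Rpl6*, and *Rpl7a* of the large subunit had their highest signal in association L5 and their lowest in association L2/3. *Rpl14* had 1.88 in L6b, 2.93 in L5, and 1.49 in L2/3 among association neurons, and 1.82 in L5 and 2.05 in L2/3 among callosal neurons. *Rpl6* had 4.79 in L6b, 5.58 in L5, and 4.55 in L2/3 among association neurons, and 4.99 in L5 and 5.06 in L2/3 among callosal neurons. *Rpl7a* had 4.94 in L6b, 5.37 in L5, and 4.41 in L2/3 among association neurons, and 4.75 in L5 and 5.13 in L2/3 among callosal neurons. Association L5 was above association L2/3 by 2.71-fold in *Rpl14*, 2.04-fold in *Rpl6*, and 1.95-fold in *Rpl7a*, and the callosal arrays lay between them in all 3. The 3 probe sets of *Rpl6* and the 3 of *Rpl7a* were all higher in association L5 than in association L2/3, by 0.83 to 1.03 and by 0.35 to 0.96. *Rpl14* has 1 probe set.

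*Rplp0* and *Rps20* had the largest L5 minus L2/3 differences among the members in callosal neurons. *Rplp0* encodes the anchor of the stalk that binds elongation factors, and *Rps20* a protein in the head of the small subunit. *Rplp0* had 4.88 in L6b, 5.49 in L5, and 4.94 in L2/3 among association neurons, and 5.70 in L5 and 4.66 in L2/3 among callosal neurons. *Rps20* had 6.85 in L6b, 6.69 in L5, and 6.25 in L2/3 among association neurons, and 6.82 in L5 and 5.81 in L2/3 among callosal neurons. Callosal L5 was above callosal L2/3 by 2.06-fold in *Rplp0* and 2.01-fold in *Rps20*, and association L5 was above association L2/3 by 0.55 and 0.44. Of the other stalk genes, *Rplp1* had 6.52 in callosal L5 and 6.51 in callosal L2/3, and *Rplp2* had 2.52 in callosal L5 and 2.17 in callosal L2/3, which is 1.27-fold.

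The association minus callosal difference was positive in both layers for 10 of the 57 members, negative in both for 21, and opposite for 26. The same counts were not taken over all genes. Of those negative in both, 2 of the small subunit are given here. *Rps10*, a gene of Diamond-Blackfan anemia in humans, had 5.18 in L6b, 4.97 in L5, and 4.38 in L2/3 among association neurons, and 5.61 in L5 and 5.04 in L2/3 among callosal neurons. *Rps3a1* had 4.91 in L6b, 4.97 in L5, and 4.92 in L2/3 among association neurons, and 5.79 in L5 and 5.44 in L2/3 among callosal neurons. Association minus callosal was −0.64 in L5 and −0.66 in L2/3 for *Rps10*, and −0.82 in L5 and −0.52 in L2/3 for *Rps3a1*. In *Rps3a1* all 3 association arrays were below both callosal arrays. The 3 probe sets of *Rps10* were all lower in association neurons in both layers, while *Rps3a1* has 1 probe set.

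*Rps29* was lowest in association L5, with 6.31 there, 6.79 in L6b and 6.74 in L2/3 among association neurons, and 6.96 in L5 and 6.98 in L2/3 among callosal neurons. All of its 4 probe sets were lower in association L5 than in association L2/3 and in callosal L5, while most members were higher in association L5 than in association L2/3. *Rpl28* had 5.62 in L6b, 5.69 in L5, and 5.15 in L2/3 among association neurons, and 5.67 in L5 and 5.91 in L2/3 among callosal neurons. Association L2/3 was the lowest array for *Rpl28*, with −0.76 against callosal L2/3 and −0.94 to −0.62 over its 5 probe sets. *Rpl10a* went the other way and was higher in association L2/3 than in callosal L2/3, by 0.48. For the family, the median of association L2/3 minus callosal L2/3 was −0.14, against 0.03 for all genes, and of association L5 minus callosal L5 −0.03, against −0.03 for all genes.

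The genes of translation outside the family held larger single differences in L6b. Elongation and termination factors had a median L6b difference of −0.30, against −0.06 for all genes compared. Of these factors 4 of 11 were at least 2-fold lower than on each other array, against 2.82% of all genes. These were *Gspt1* and *Etf1*, the release factors that end translation, *Eef2*, which moves the ribosome along the mRNA, and *Eif5a*, which relieves stalled ribosomes, with −2.95, −1.65, −2.18, and −2.10. *Eef2* had 2.73 in L6b, 4.93 in L5, and 4.96 in L2/3 among association neurons, and 4.98 in L5 and 4.77 in L2/3 among callosal neurons. Initiation factors had a median of −0.15 over 33 genes with 3 that low, and *Eif4h*, *Eif3d*, and *Eif3m* had the largest differences, with −2.45, −1.62, and −1.53. Ribosome biogenesis genes had a median of −0.09 over 42 genes, with *Rrs1* at −2.91, *Gnl3* at −1.78, and *Nip7* at −1.28.

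**Figure D5:**
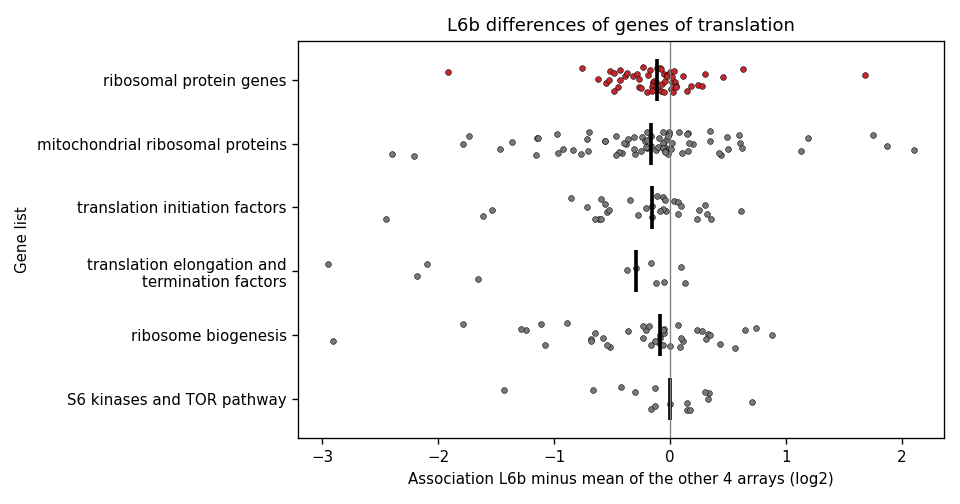
Difference of association L6b from the mean of the other 4 arrays (x axis, log2) for genes of 6 lists of translation (rows), with each gene as a point and the list's median as a black line. Most of the ribosomal protein genes (red) lie close to 0. *Rps27l* and *Rpl12* lie furthest from it, others such as *Rpl7* (−0.76) and *Rpl22* (0.63) less far, and the mitochondrial list reaches further to both sides.

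Mitochondrial ribosomal protein genes spread in both directions in L6b, with a median of −0.16, against −0.06 for all genes compared. Of these 77 genes 4 were at least 2-fold higher than on each other array, against 1.26% of all genes. Another 5 were at least 2-fold lower, against 2.82% of all genes. *Mrps15* had −2.40, *Mrpl48* −2.20, and *Mrps23* 2.11. S6 kinase and TOR pathway genes had a median of −0.005 over 15 genes, with *Pdpk1* at −1.43, *Rheb* at 0.70, and *Larp1*, which binds 5′ TOP mRNAs, at −0.67. Of other genes tied to the ribosome, *Btf3* had 0.66, *Naca* 0.40, and *Tpt1* −0.16. Of the 2 named pseudogenes of the family, *Rps19-ps3* had 3.72 and *Rpl14-ps1* −0.42.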

How the data were processed

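The authors deposited 1 table of log2 signals for 35556 probe sets on 5 arrays, made with Affymetrix Expression Console per the submitters' notes. Sources used here give neither its version nor the summarization method, nor whether the table includes the authors' global normalization. The base of the logarithm was inferred from the range, 1.11 to 14.2. The platform annotation gave 1 symbol for 21789 probe sets, several for 1621 and none for 12146. Array medians (5.71 to 5.8) were subtracted. The probe set with the highest mean was used for each gene, and genes that reached the median on any array were kept. Steps were run in Python 3.11.15 with numpy 2.4.6, pandas 2.3.3 and matplotlib 3.10.9, and tested on simulated data. Unmapped sample columns numbered 0.

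Members, lists and alternatives were chosen with earlier results of these data known. Every member could be named. All array values were given for members at least 2-fold from each other array, the 6 highest and 6 lowest in L6b, the 3 largest differences in each direction in each of 6 pairs, the 3 smallest ranges and paralogs, and for 3 genes with the largest L6b differences per related list the difference, with array values for *Eef2*. *Rplp1*, *Rplp2*, *Rps4x*, *Etf1* and *Rpl30* were named with values after these had been seen. Alternatives were values as deposited, the 75th percentile or quantiles as scale, other filters, other choices of probe sets and folds, and leaving out arrays. Only 1 array per group limits every value.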

Additional observations from a re-analysis of the deposited data

Results flagged for a closer look

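In 4 of the 57 members the same contrast had opposite signs, by at least 0.5 on both sides, in the other layer or projection. The share of all genes that pass this rule was not counted, so the number is not particular to the members. With 1 array per group the difference was not tested in any of them. *Rpl22* was higher in L5 than in L2/3 among association neurons, by 0.95, and lower among callosal neurons, with −0.82. *Rpl14* was higher in association than in callosal neurons in L5, by 1.11, and lower in L2/3, with −0.56. The same contrast was 0.59 in L5 and −0.51 in L2/3 for *Rpl6*, and 0.62 in L5 and −0.72 in L2/3 for *Rpl7a*. Association L2/3 enters all 4 genes, and it was the lowest array in each.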

How the results depend on the processing

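Of the values recomputed, 142 moved by at most 0.1 or stayed within 1.5 times a count, 14 moved further, and 1 reversed sign. A reversal was counted only where the main value was at least 0.05 in size. The tolerance of 0.1 is as large as several of the medians. The median of association L5 against the others was 0.02 in members with 1 probe set, against 0.10. With quantile normalization the callosal L5 median was 0.04, against 0.12, and the L6b median −0.04, against −0.11. The median L6b difference of the members was 0.08 when L6b was set against the lowest of the other arrays, the opposite sign, −0.34 against the highest, and −0.0075 with the 75th percentile as scale. All genes had 0.0475 with that scale, and members minus all genes was −0.055, as with the median as scale. With the 75th percentile the members' median of association L6b minus L2/3 was 0.18, against 0.07 for all genes. The median of association L5 minus L2/3 was 0.1 in probe sets naming several genes, an alternative chosen after the values were seen. At least 2-fold lower in L6b were 2 members with the mean of a gene's probe sets and 2 at 1.5-fold, *Rps27l* and *Rpl7* in both cases. At 4-fold, 0 were lower and 0 higher in L6b. Over the 5 arrays, 3 members at 2-fold became 5 with quantile normalization, 5 with the mean of probe sets, 9 at 1.5-fold and 0 at 4-fold. Over the 6 pairs, 15 differences of 2-fold became 51 at 1.5-fold and 1 at 4-fold. The causes were not tested, but a lower fold counts more genes by construction. For these counts the shares of all genes under the alternatives were not computed, so a change in a count is not particular to the members. No paired analysis was possible because each group has 1 array. Signals near the array median, as those of *Rpl12* on 4 arrays, leave little room to show a lower level.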
